A study of Arabidopsis thaliana with 9 samples.

Results

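The mitochondrion-encoded genes of Arabidopsis thaliana are the genes whose locus identifiers start with ATMG. All 152 of them among the 37336 genes of the deposited small RNA table were taken. Of these, 34 had at least 10 normalized reads in at least 3 of the 9 libraries and were tested one by one, and the other 118 are described as a sum. Normalized reads are a gene's read count over the library's size factor. Just inside this filter, the third-highest library of ATMG01250, ATMG01390 and ATMG00140 held 10.9, 11.0 and 11.3 normalized reads. Just outside it, ATMG00150, ATMG01060 and ATMG00110 had 9.47, 9.23 and 9.22.

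RNAs of 17 to 30 nt from soil-grown plants were sequenced in 3 genotypes with 3 libraries each, and the design text asks how small RNAs in the 2 mutants compare with those in Col-0 (LUC). Col-0 is the standard laboratory accession, prors1 (LUC) is named after PRORS1, a prolyl-tRNA synthetase that serves both chloroplasts and mitochondria, and rls6 is the third genotype. Plants of all groups grew under 16 h of light and 8 h of darkness per day, and one label gives their age as 25 days and another as 26 days. What LUC marks and what rls6 carries is not in the labels, and the source label names the mutants rbp-ko-1 and rbp-ko-2 instead. Nor do they say whether the libraries come from separate plants, so p-values here measure only the spread between these libraries. RNA came from whole plants, in which fewer cells or organelles cannot be told apart from less RNA in each.

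The plant mitochondrial genome encodes core subunits of the respiratory chain and of ATP synthase, some ribosomal proteins, ribosomal and transfer RNAs, and many open reading frames without a known product. Its transcripts are processed, edited and degraded by nuclear-encoded proteins. Short organellar RNAs can be fragments that remain where a bound protein shields a transcript end, and many of these have been catalogued as clustered organellar short RNAs (cosRNAs). In the Col-0 accession, a nuclear copy of much of the mitochondrial genome lies near the centromere of chromosome 2, so that a short read can match both genomes.

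The reference used here is TAIR10.1, while the submitters' processing notes name TAIR10, and the ATMG identifiers carry no coordinates or gene names in it. Names were therefore taken only from RefSeq notes of 55 nuclear loci that name an ATMG gene as their match. These notes cover 53 members, of which 7 were tested, and 53 of the 55 loci have identifiers from AT2G07660 to AT2G07840, on chromosome 2. A note gives the best protein match of a nuclear locus and does not by itself show what an ATMG gene encodes. The other 27 tested members, ATMG00030 included, are given by identifier only.

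The RefSeq mitochondrial sequence annotates 254 cosRNAs of 15 to 50 nt, 168 of them within the 17 to 30 nt taken from the gel. To show what such short RNAs look like, 4 that lie in AT2G07687 and AT2G07777, the nuclear loci whose notes name ATMG00730 and ATMG01090, are printed 5′ to 3′ in lower case, with coordinates of TAIR10.1. The deposited table counts reads per gene and not per sequence, so reads of these RNAs cannot be picked out.
cosRNA M108: aacgtgatgctccttcgtcagatg
cosRNA M65: gtagaacatcgcgccaccatacga
cosRNA M98: ctcctcaggaatcggttgattgac
cosRNA M78: gtagagactatcacgagcgcct
Both cosRNA M108 (chr2:3311944-3311967) and cosRNA M65 (chr2:3312456-3312479) lie on the plus strand within AT2G07687, a locus annotated on the minus strand. Each has 1 place in the nuclear chromosomes and 1 in the mitochondrial sequence, there within cox3, the gene of cytochrome c oxidase subunit 3. Within AT2G07777, cosRNA M98 lies at chr2:3251102-3251125 on the plus strand and cosRNA M78 at chr2:3251026-3251047 on the minus strand. cosRNA M98 has 2 places in each genome, and cosRNA M78 has 2 nuclear and 3 mitochondrial places. No mitochondrial place of cosRNA M98 or cosRNA M78 overlaps a named gene.

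The 9 libraries held 611238 to 702303 reads over annotated genes, and mitochondrion-encoded genes took 0.374% to 0.483% of them. Chloroplast-encoded genes took 2.43% to 4.59%. Among the 152 members, 99 had at least 1 read, and 53 had 0 of the 5805164 reads of all libraries, a count that allows up to 3 reads over all libraries, counting error only. The tested members other than ATMG00030 had means of 7.14 to 141 normalized reads over the 9 libraries, and 14 of the 34 had means under 20, so the precision of single genes is set by few reads. Numbers of reads are not levels per length, because the reference gives no lengths for these identifiers.

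ATMG00030 dominated the mitochondrial reads and was lower in prors1 (LUC). It held 13271 of the 24080 mitochondrial reads, or 55.1%, and in single libraries 42.5% to 63.1%. Replicates 1 to 3 had 1573, 1460 and 1683 normalized reads in Col-0 (LUC), while prors1 (LUC) had 1389, 998 and 1143 and rls6 had 1448, 1429 and 1352. Both mutants lay below all Col-0 (LUC) libraries, while the mutants overlapped each other. The means were 1572 ± 112 (SD, n = 3) for Col-0 (LUC), 1177 ± 198 for prors1 (LUC) and 1410 ± 51.0 for rls6. ATMG00030 fell by 0.43 ± 0.11 (SE) on the log2 scale in prors1 (LUC), with an adjusted p of 0.00745 (limma over 4766 genes). In rls6 its log2 fold change was -0.16 against Col-0 (LUC), with an adjusted p of 0.368 (limma). Without prors1 (LUC) replicate 2, which had the lowest value, the fall was 0.32 and the adjusted p 0.0539 (limma). A limma fit without a trend of variance on mean gave an adjusted p of 0.109. With upper-quartile scaling, which moved the median of all genes to 0.20, the log2 fold change of ATMG00030 was -0.24 with an adjusted p of 0.288 (limma), and its distance from that median was -0.43.

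The other mitochondrial reads went the opposite way in prors1 (LUC). Summed over all members without ATMG00030, replicates 1 to 3 had 995, 1057 and 985 normalized reads in Col-0 (LUC), while prors1 (LUC) had 1408, 1353 and 1378 and rls6 had 1034, 1003 and 1054. All prors1 (LUC) libraries lay above all others, and rls6 and Col-0 (LUC) overlapped. The means were 1012 ± 39.2 (SD, n = 3), 1380 ± 27.5 and 1030 ± 25.6. The sum in prors1 (LUC) was thus 1.36 times that in Col-0 (LUC), the sum in rls6 was 1.02 times that in Col-0 (LUC), and the sum in rls6 was 0.747 times that in prors1 (LUC). No p-value is given for sums over members.

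With ATMG00030 included, the totals of prors1 (LUC) and Col-0 (LUC) overlapped. Replicates 1 to 3 had 2568, 2517 and 2668 normalized reads in Col-0 (LUC), while prors1 (LUC) had 2797, 2351 and 2521 and rls6 had 2483, 2432 and 2405. The prors1 (LUC) libraries spanned the whole range of Col-0 (LUC), and rls6 lay below Col-0 (LUC) without overlap. The ratio of means was 0.989 for prors1 (LUC) and 0.944 for rls6, both against Col-0 (LUC). These small differences depend on the scaling. With upper-quartile factors both mutants had the higher mean, as given in the last section.

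**Figure D1:**
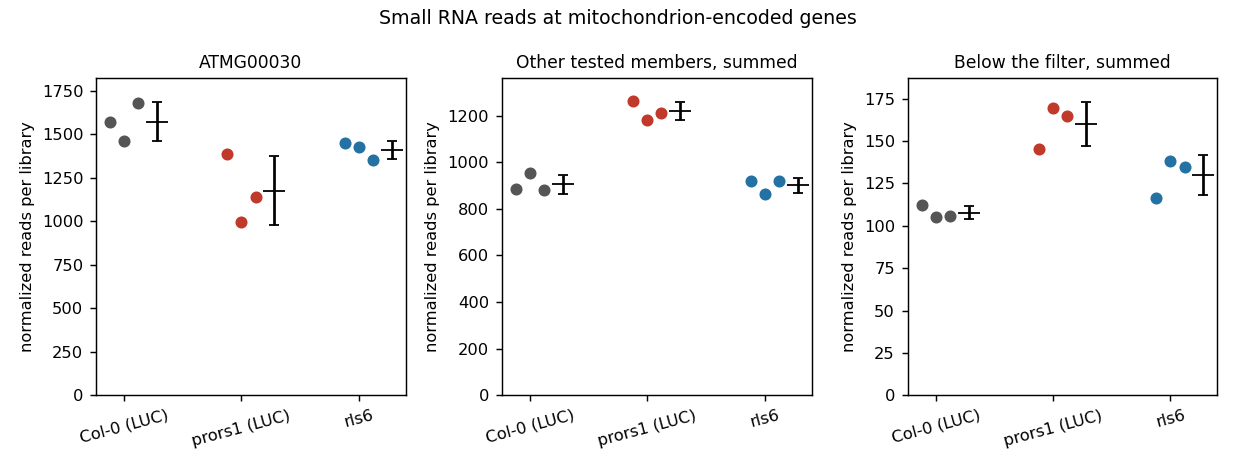
Normalized small RNA reads per library (y axis) by genotype (x axis) for ATMG00030, for the 33 other tested members summed, and for the 118 members below the filter summed. Points are libraries and bars are means ± SD of 3 libraries. ATMG00030 lies at 998 to 1389 in prors1 (LUC) and at 1460 to 1683 in Col-0 (LUC). The other tested members sum to 1183 to 1263 in prors1 (LUC) and to 864 to 952 in the libraries of Col-0 (LUC) and rls6.

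Gene by gene, 5 of the 34 tested members rose and 1 fell in prors1 (LUC) against Col-0 (LUC) at an adjusted p of 0.05 (limma). Of all 4766 tested genes, 7.74% rose and 6.63% fell in this comparison (14.4% in either direction). By edgeR, 5 members rose and 1 fell, with 7.64% and 6.57% of all tested genes, and by DESeq2, 2 rose and 1 fell, with 4.3% and 3.32%. The members that rose were ATMG01090, ATMG01130, ATMG00050, ATMG01310 and ATMG01100, and the one that fell was ATMG00030. The median log2 fold change of the members was 0.41, against 0.01 over all tested genes. It was above 0 in 31 of the 34 members and in 51.1% of all tested genes. The libraries of both genotypes did not overlap in 14 members that were higher and 2 that were lower in prors1 (LUC), against 14.3% and 13.2% of all tested genes.

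In rls6 against Col-0 (LUC), 0 members rose and 0 fell, whereas 12.7% of all tested genes rose and 4.95% fell (17.6% in either direction). The unadjusted p was below 0.05 in 4 members by limma. Both edgeR and DESeq2 also called 0 of the 34 genes, while edgeR called 13.1% of all tested genes higher and 5.33% lower, and DESeq2 9.9% and 2.18%. The median log2 fold change of the members was -0.03, against -0.02 over all tested genes, and it was above 0 in 16 members and in 47.5% of all tested genes. Nearest to the threshold was ATMG00140, at -0.93 ± 0.32 (SE) with an adjusted p of 0.0504 (limma).

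In rls6 against prors1 (LUC), 6 members fell and 0 rose, against 5.16% and 11.7% of all tested genes (16.8% in either direction). They were ATMG01090, ATMG01100, ATMG00140, ATMG01300, ATMG00680 and ATMG00730. The median of the members was -0.42, against -0.02 over all tested genes, and 5 of 34 lay above 0, compared with 47.4% of all tested genes. By edgeR, 7 members fell and 0 rose, against 5.12% and 11.6%, and by DESeq2, 1 fell and 0 rose, against 1.93% and 8.48%. In 15 members all rls6 libraries lay below all prors1 (LUC) libraries (15.4% of all tested genes), and in 0 members above them (18.2%). This comparison and that of prors1 (LUC) with Col-0 (LUC) share the prors1 (LUC) libraries, so they are no independent evidence for each other. A total of 10 members passed the test in at least 1 comparison and 24 in none.

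**Figure D2:**
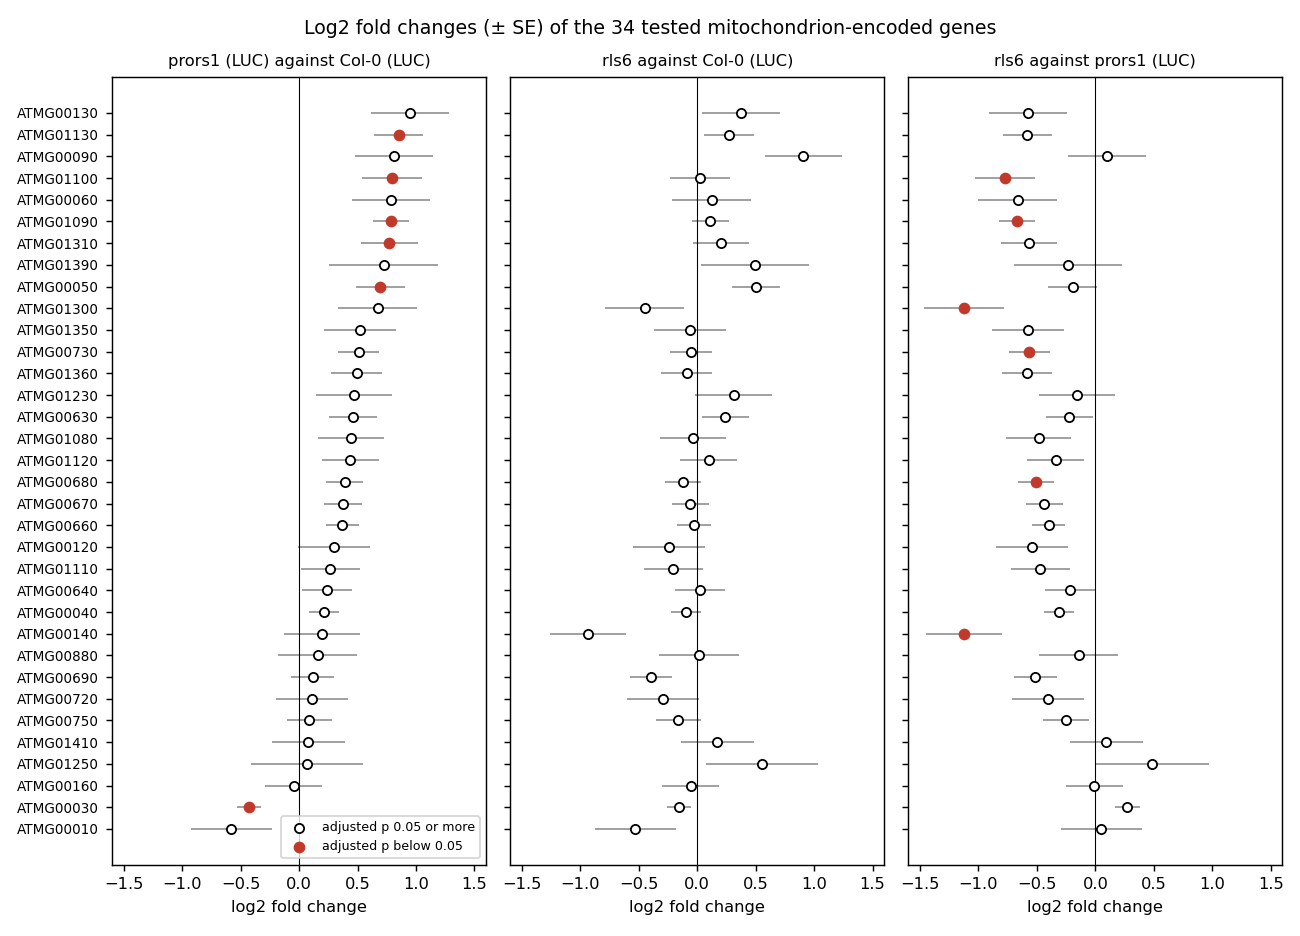
Log2 fold changes (x axis) with standard errors of the 34 tested mitochondrion-encoded genes (y axis, ordered by the first panel) in the 3 comparisons of genotypes, with 3 libraries per genotype. Red points have an adjusted p below 0.05 (limma); in the first panel 31 of 34 genes lie above 0, and in the last panel 29 of 34 lie below it.

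ATMG00730 was the one member matched to complex IV of the respiratory chain, and its reads fell from prors1 (LUC) to rls6. It matches cytochrome c oxidase subunit 3, a core subunit of the enzyme that passes electrons to oxygen. Identifiers of other complex IV genes, such as cox1 and cox2, are not named here. Replicates 1 to 3 had 28.4, 33.7 and 31.8 normalized reads in Col-0 (LUC), while prors1 (LUC) had 48.4, 39.5 and 47.2 and rls6 had 31.1, 29.2 and 29.7. All prors1 (LUC) libraries were higher than all others. The log2 fold change against Col-0 (LUC) was 0.51 ± 0.18 (SE) in prors1 (LUC) with an adjusted p of 0.0592, and -0.06 in rls6 with an adjusted p of 0.887 (limma). Against prors1 (LUC), ATMG00730 fell by 0.56 ± 0.18 in rls6, with an adjusted p of 0.0312 (limma). That call was lost in 9 of 20 alternative settings, among them leaving out any one rls6 library or prors1 (LUC) replicate 1 or 3, where the adjusted p was 0.0625 to 0.111 (limma).

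The few members matched here to complex I and complex III had few or no reads. For complex I, the NADH dehydrogenase, 3 members were matched, to subunits NADH dehydrogenase 3 (ATMG00990), 1A (ATMG01275) and 2B (ATMG01320). They held 10 reads in Col-0 (LUC), while prors1 (LUC) had 15 and rls6 had 14. Their nuclear matches AT2G07751, AT2G07785 and AT2G07689 had 108, 266 and 399 reads over the 9 libraries. Identifiers of other complex I genes are not named here. The gene of apocytochrome b of complex III, ATMG00220, had 0 reads. ATMG00590, whose note names a cytochrome b/b6 protein, also had 0 reads. The 3 members matched to cytochrome c maturation, which attaches heme to cytochrome c, held 0, 0 and 4 reads in the 3 genotypes.

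Of the 5 members whose notes name ATP synthase, ATMG01090 and ATMG01080 were tested, and ATMG01090 rose in prors1 (LUC). Both notes name subunit 9, the membrane ring subunit, but the RefSeq gene atp9 has its one exact nuclear place at chr2:3251856-3252080, within AT2G07671, the match of ATMG01080. The match of ATMG01090, AT2G07777, spans chr2:3249396-3251545 and does not hold atp9, so ATMG01090 is not described as a subunit 9 gene here. ATMG01090 had 63.6, 103 and 69.7 normalized reads in replicates 1 to 3 in Col-0 (LUC), while prors1 (LUC) had 143, 134 and 124 and rls6 had 74.2, 82.0 and 95.1. The prors1 (LUC) libraries were above all others, and Col-0 (LUC) and rls6 overlapped. The means were 78.7 ± 21.1 (SD, n = 3), 134 ± 9.51 and 83.8 ± 10.6.

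ATMG01090 rose by 0.79 ± 0.15 (SE) on the log2 scale in prors1 (LUC), to 1.70 times its mean in Col-0 (LUC), with an adjusted p of 0.000999 (limma). In rls6 it fell by 0.67 ± 0.15 against prors1 (LUC), with an adjusted p of 0.0032 (limma). Both calls were kept in all 20 alternative settings run, with adjusted p-values up to 0.0339 and 0.0499. The authors' deposited table, however, did not call the rise of ATMG01090 in prors1 (LUC). It gives a log2 fold change of 0.65 ± 0.30 (SE) with an adjusted p of 0.256. ATMG01080 had means of 20.5 ± 6.63, 27.9 ± 7.28 and 19.8 ± 6.26 in Col-0 (LUC), prors1 (LUC) and rls6, and its libraries overlapped in the comparison of prors1 (LUC) with Col-0 (LUC). The adjusted p of ATMG01080 in that comparison was 0.349 (limma). The remaining members with ATP synthase notes had 19 reads in all at ATMG01190 (subunit 1) and 0 at ATMG00410 (subunit 6) and ATMG00480 (subunit 8).

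Of 4 members matched to ribosomal proteins, which build the mitochondrial ribosome, none was tested. They held 8 reads in Col-0 (LUC), while prors1 (LUC) had 26 and rls6 had 14. Most of these were reads of ATMG01270, the gene of ribosomal protein S7, with 7, 24 and 14 reads. Its normalized reads were 1.67, 0.803 and 4.10 in Col-0 (LUC), while prors1 (LUC) had 9.47, 6.75 and 8.21 and rls6 had 4.58, 6.60 and 1.98. The prors1 (LUC) libraries lay above all others at this depth of a few reads. In a limma fit of all genes with at least 1 read, 322 of 29590 were called higher in prors1 (LUC) than in Col-0 (LUC), ATMG01270 among them. That fit lost the calls of ATMG00050, ATMG01100 and ATMG01310. The authors' deposited table gives ATMG01270 an adjusted p of 0.0944.

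ATMG01110 matches the RNA-dependent RNA polymerase of a mitovirus, a virus-derived gene kept in the mitochondrial genome. Its means were 20.3 ± 4.10 (SD, n = 3) for Col-0 (LUC), 24.8 ± 6.24 for prors1 (LUC) and 17.4 ± 2.46 for rls6, and the groups overlapped in each comparison. Its adjusted p was 0.572 for prors1 (LUC) against Col-0 (LUC) (limma).

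Members matched to proteins of unknown function, or known by a nuclear pseudogene copy, included ATMG01310, ATMG01100 and ATMG01300. ATMG01310 had 20.1, 25.7 and 13.3 normalized reads in Col-0 (LUC), while prors1 (LUC) had 40.0, 29.9 and 30.8 and rls6 had 22.0, 19.8 and 24.8. Every prors1 (LUC) library was above every other library. ATMG01310 rose by 0.77 ± 0.24 (SE) relative to Col-0 (LUC) in prors1 (LUC), with an adjusted p of 0.0348 (limma). This call was lost in 9 of 20 alternative settings, among them DESeq2 with an adjusted p of 0.175. It was also lost without replicate 1 or 3 of either genotype, at adjusted p-values of 0.0606 to 0.193 (limma).

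ATMG01100 had 15.9, 16.1 and 18.4 normalized reads in Col-0 (LUC), while prors1 (LUC) had 40.0, 27.0 and 24.6 and rls6 had 14.7, 14.1 and 23.8. The prors1 (LUC) libraries were again the highest, with replicate 1 well above the others. ATMG01100 rose by 0.80 ± 0.26 relative to Col-0 (LUC) in prors1 (LUC) (adjusted p 0.0409, limma) and fell by 0.77 in rls6 against prors1 (LUC) (adjusted p 0.041, limma). Without prors1 (LUC) replicate 1 these adjusted p-values were 0.214 and 0.216 (limma). The first call was also lost without any one Col-0 (LUC) library or prors1 (LUC) replicate 2, and the second without prors1 (LUC) replicate 2 or rls6 replicate 1 or 2. In all, the first was lost in 9 of 20 alternative settings and the second in 8. DESeq2 was among them for both, with adjusted p-values of 0.126 and 0.150.

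ATMG01300 had 10.9, 16.9 and 10.2 normalized reads in Col-0 (LUC), while prors1 (LUC) had 23.2, 25.1 and 14.4 and rls6 had 10.1, 13.2 and 4.96. Col-0 (LUC) overlapped both mutants, while rls6 lay below prors1 (LUC). It fell by 1.12 ± 0.34 (SE) in rls6 against prors1 (LUC), with an adjusted p of 0.0243 (limma). Without rls6 replicate 3, its lowest library, the fall was 0.76 and the adjusted p 0.157 (limma). Without prors1 (LUC) replicate 1 or 2 the adjusted p was 0.0898 and 0.102 (limma). In all, the call of ATMG01300 was lost in 5 of 19 alternative settings, among them DESeq2 with an adjusted p of 0.0833.

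Among members that carry no annotation here, ATMG01130 and ATMG00050 rose in prors1 (LUC). ATMG01130 had 23.4, 19.3 and 28.7 normalized reads in Col-0 (LUC), while prors1 (LUC) had 38.9, 40.5 and 51.3 and rls6 had 25.7, 25.4 and 35.7. The prors1 (LUC) libraries did not overlap with either other genotype. Its log2 fold change against Col-0 (LUC) was 0.85 ± 0.21 (SE) with an adjusted p of 0.0076 (limma), and this call was kept in 19 of 20 alternative settings. Without prors1 (LUC) replicate 3 the adjusted p of ATMG01130 was 0.0525 (limma). The authors' deposited table, whose comparison follows prors1 (LUC) over Col-0 (LUC), gives ATMG01130 a log2 fold change of 0.80 with an adjusted p of 0.0246. In the authors' deposited table this was the one member called higher, and ATMG00030 the one called lower, at -0.41 with an adjusted p of 0.00344. These calls were among 56 members with an adjusted p in the authors' deposited table. Of all 7375 genes with an adjusted p there, 3.24% were called higher and 2.67% lower in the authors' deposited table.

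ATMG00050 had 25.9, 33.7 and 19.5 normalized reads in Col-0 (LUC), while prors1 (LUC) had 44.2, 49.1 and 34.9 and rls6 had 35.7, 40.5 and 34.7. Both mutants lay above all Col-0 (LUC) libraries and overlapped each other. It rose by 0.70 ± 0.21 (SE) in prors1 (LUC), with an adjusted p of 0.0265 (limma). ATMG00050 missed the threshold when Col-0 (LUC) replicate 1 or 3 was left out, or prors1 (LUC) replicate 1 or 2, with adjusted p-values of 0.0619 to 0.153 (limma). In all, its call was lost in 9 of 20 alternative settings, among them DESeq2 with an adjusted p of 0.149. In rls6 the log2 fold change of ATMG00050 was 0.50 ± 0.21 with an adjusted p of 0.106 (limma).

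ATMG00140 and ATMG00680 were lower in rls6 than in prors1 (LUC). ATMG00140 had 10.9, 11.2 and 11.3 normalized reads in Col-0 (LUC), while prors1 (LUC) had 12.6, 9.64 and 17.4 and rls6 had 5.50, 5.65 and 4.96. All rls6 libraries were below all others. None of them reached 10 normalized reads, so ATMG00140 passed the filter only through the other genotypes. It fell by 1.13 ± 0.32 (SE) in rls6 against prors1 (LUC), with an adjusted p of 0.018 (limma), from 39 reads in 3 libraries to 17. Without prors1 (LUC) replicate 3 the adjusted p was 0.104, and without rls6 replicate 3 it was 0.0555 (limma). In all, the call of ATMG00140 was lost in 4 of 19 alternative settings, among them DESeq2 with an adjusted p of 0.111.

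ATMG00680 had 55.2, 64.3 and 53.3 normalized reads in Col-0 (LUC), while prors1 (LUC) had 67.3, 82.9 and 76.9 and rls6 had 63.2, 50.0 and 46.6. Its prors1 (LUC) libraries were the highest, and Col-0 (LUC) and rls6 overlapped. It fell by 0.51 ± 0.15 (SE) in rls6 against prors1 (LUC), with an adjusted p of 0.025 (limma). This call was lost in 9 of 20 alternative settings, among them leaving out replicate 2 or 3 of either mutant, where the adjusted p was 0.074 to 0.123 (limma).

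**Figure D3:**
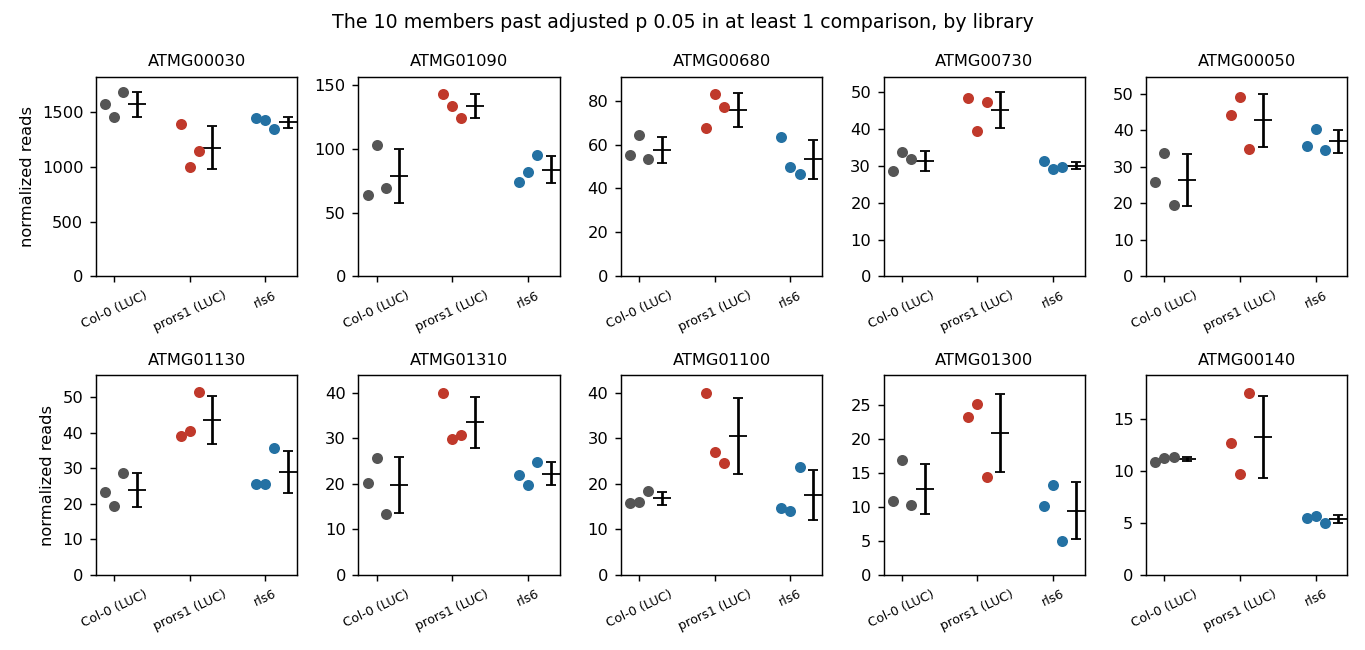
Normalized reads per library (y axis) by genotype (x axis) for the 10 members with an adjusted p below 0.05 in at least 1 comparison (limma). Points are libraries and bars are means ± SD of 3 libraries; ATMG01090 reaches 124 to 143 in prors1 (LUC) and 63.6 to 103 in the other libraries, and ATMG00140 stays between 4.96 and 5.65 in rls6.

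Of the 10 members with most reads, 5 passed in no comparison, and all of these are without annotation here. ATMG00660 had the most reads after ATMG00030, with 146, 98.0 and 147 normalized reads in Col-0 (LUC), while prors1 (LUC) had 180, 142 and 179 and rls6 had 130, 113 and 135. Col-0 (LUC) overlapped both mutants, and its log2 fold change in prors1 (LUC) was 0.37 ± 0.14 (SE) with an adjusted p of 0.0932 (limma).

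ATMG00040 had 71.1, 77.9 and 71.7 normalized reads in Col-0 (LUC), while prors1 (LUC) had 81.0, 85.8 and 89.2 and rls6 had 74.2, 66.9 and 65.4. ATMG00670 had 67.7, 55.4 and 62.5 in Col-0 (LUC), while prors1 (LUC) had 70.5, 77.1 and 95.4 and rls6 had 72.4, 56.5 and 50.5. In both genes prors1 (LUC) lay above Col-0 (LUC) without overlap, with log2 fold changes of 0.21 and 0.38 and adjusted p-values of 0.331 and 0.129 (limma).

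ATMG00690 had 38.5, 40.2 and 43.0 normalized reads in Col-0 (LUC), while prors1 (LUC) had 50.5, 35.7 and 47.2 and rls6 had 33.9, 29.2 and 28.7. ATMG00750 had 34.3, 32.9 and 30.7 in Col-0 (LUC), while prors1 (LUC) had 44.2, 30.8 and 30.8 and rls6 had 29.3, 30.2 and 27.8. In both genes rls6 was below all other libraries, with log2 fold changes against Col-0 (LUC) of -0.40 and -0.16 and adjusted p-values of 0.147 and 0.649 (limma).

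The remaining 19 tested members also passed in no comparison. Their log2 fold changes ran from -0.58 to 0.95 relative to Col-0 (LUC) in prors1 (LUC), with a median of 0.44. They ran from -0.53 to 0.91 in rls6 against Col-0 (LUC), with a median of 0.02. The highest value in prors1 (LUC) was that of ATMG00130. It had 5.85, 6.43 and 6.15 normalized reads in Col-0 (LUC), against 14.7, 11.6 and 12.3 in the mutant, without overlap. Its adjusted p was 0.059 (limma). No Col-0 (LUC) library reached the read minimum of the filter, so ATMG00130 passed the filter only through the mutants. ATMG00090 was the member with the highest value in rls6, at 0.91 ± 0.33 (SE) with an adjusted p of 0.0643 (limma), and it overlapped between all genotypes. Going the other way, ATMG00010 had 14.2, 12.9 and 14.3 normalized reads in Col-0 (LUC), against 5.26, 10.6 and 12.3 in the mutant, with a log2 fold change of -0.58 and an adjusted p of 0.315 (limma).

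The 118 members below the filter held 1253 reads in all, spread over 65 genes with at most 76 reads each. The most reads were at ATMG01400 with 76, at ATMG00150 with 68, and at ATMG00110 and ATMG01060 with 67 each. Replicates 1 to 3 of the sum over all 118 had 112, 105 and 106 normalized reads in Col-0 (LUC), while prors1 (LUC) had 145, 170 and 165 and rls6 had 116, 139 and 135. Every mutant library lay above every Col-0 (LUC) library, and prors1 (LUC) above rls6. The sum was 1.49 times that of Col-0 (LUC) in prors1 (LUC) and 1.21 times in rls6, whereas over all 24824 untested genes with reads the ratios were 0.919 and 1.01. The mean was higher in prors1 (LUC) than in Col-0 (LUC) in 41 of the 65 genes and lower in 16, and of all untested genes with reads 43.2% were higher.

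The nuclear loci that match members were compared because a short read can fit both genomes. Of all windows of 21 bases in the 367808-base mitochondrial sequence, 73.0% also occur in the nuclear chromosomes of TAIR10.1. The nuclear loci named for members hold mitochondrial windows over 78.2% to 100% of their length. How reads with several matching places were counted is not given in the sources used here, so a read at an ATMG gene cannot be told apart from one of its nuclear copy, and the other way round.

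Reads were divided unevenly within these pairs. In 36 of 55 pairs the nuclear locus had more reads than the ATMG gene, in 11 it had fewer and in 8 the numbers were equal. ATMG00730 had 335 reads and its nuclear match AT2G07687 had 15, and ATMG01090 had 932 reads and AT2G07777 had 73. The reverse held for ATP synthase subunit 1, where ATMG01190 had 19 reads and AT2G07698 had 427, and for the mitovirus polymerase, where ATMG01110 had 197 and AT2G07749 had 2265. In the RefSeq mitochondrial sequence all windows of cox3, atp1 and cob occur in the nuclear chromosomes, but only 2.17% of those of cox1.

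Of the nuclear loci that name a member, 18 were tested, and 6 rose and 0 fell in prors1 (LUC) against Col-0 (LUC), beside 7.74% and 6.63% of all tested genes (limma). Their log2 fold changes ran from -0.16 to 1.12, with a median of 0.64. The loci that rose were AT2G07749, AT2G07674, AT2G07698, AT2G07798, AT2G07695 and AT2G07673. Of the members they match, ATMG01110 was tested and not called. The others, ATMG01010, ATMG01190, ATMG01220, ATMG01280 and ATMG01030, were below the filter. The known nuclear matches of called members, AT2G07777, AT2G07691, AT2G07812, AT2G07687 and AT2G07692, were not tested. They had 8 to 73 reads each over the 9 libraries. In rls6 against Col-0 (LUC), 0 of the 18 loci rose and 0 fell, beside 12.7% and 4.95%, with a median of 0.11. limma, edgeR and DESeq2 each called 0 of them there, and each gave 1 locus an unadjusted p under 0.05. In rls6 against prors1 (LUC), 0 rose and 4 fell, beside 11.7% and 5.16%, and DESeq2 called 2 of the 18. Values are given for the loci matched to ATP synthase subunit 1 and to the mitovirus polymerase. AT2G07698 had means of 34.8 ± 6.09 (SD, n = 3) for Col-0 (LUC), 62.7 ± 7.26 for prors1 (LUC) and 38.4 ± 12.6 for rls6. It rose by 0.84 ± 0.21 (SE) relative to Col-0 (LUC) in prors1 (LUC) with an adjusted p of 0.0078, and fell by 0.74 in rls6 against prors1 (LUC) with an adjusted p of 0.0157 (limma). AT2G07749 had means of 193 ± 2.70, 306 ± 60.8 and 220 ± 15.7, and rose by 0.64 ± 0.12 in prors1 (LUC) with an adjusted p of 0.00071 (limma).

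Among all loci with identifiers from AT2G07660 to AT2G07840, 11 of 40 tested loci rose and 0 fell in prors1 (LUC) against Col-0 (LUC), beside the 7.74% and 6.63% of all tested genes. In rls6 against Col-0 (LUC), 2 of 40 rose and 0 fell, beside 12.7% and 4.95% of all tested genes. Of the 29 loci with at least 90% of their windows in the mitochondrial sequence, 9 rose in prors1 (LUC), with a median log2 fold change of 0.55. Of the 11 loci with under 10%, 2 rose, AT2G07730 and AT2G07740, and the median was 0.18. These window limits were chosen after the values were seen.

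Most chloroplast-encoded genes, the genes of the other organelle, rose in both mutants. Of 106 tested, 76 rose and 2 fell in prors1 (LUC), and 97 rose and 3 fell in rls6, both against Col-0 (LUC). Their summed normalized reads were 14095 ± 1024 (SD, n = 3) for Col-0 (LUC), 24410 ± 4024 for prors1 (LUC) and 28625 ± 988 for rls6. The mitochondrial sum without ATMG00030 was 1.02 times that of Col-0 (LUC) in rls6, in which the chloroplast sum was 2.03 times. Whether the chloroplast reads take part in the differences at mitochondrial genes was not tested.

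**Figure D4:**
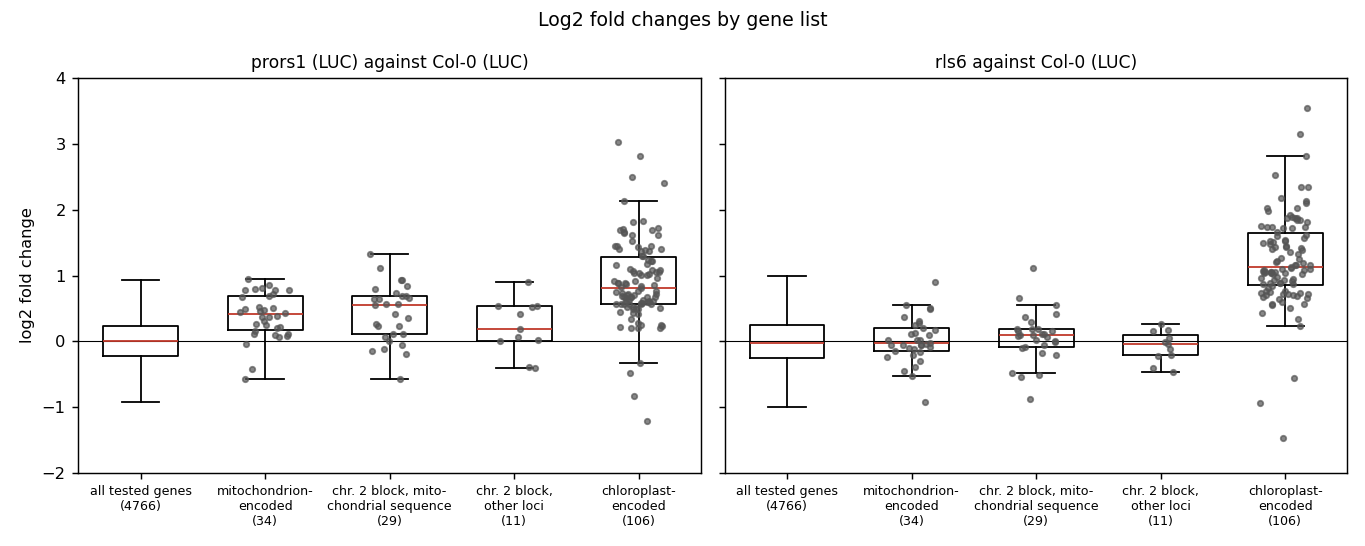
Log2 fold changes (y axis) in prors1 (LUC) and rls6 against Col-0 (LUC) by gene list (x axis, number of tested genes in brackets); boxes give the median and quartiles, whiskers the range of genes that are not far outliers, and points are the genes of each list except the first. The mitochondrion-encoded genes have medians of 0.41 in prors1 (LUC) and -0.03 in rls6, and the chloroplast-encoded genes 0.81 and 1.12.

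Nuclear genes of mitochondrial gene expression, respiration and signalling could not be compared. Examples are the RNA polymerase RPOTMP, the RNase P protein PRORP1 and the alternative oxidase AOX1A. None of the 8 listed genes was tested, and they had 1 to 38 reads each over the 9 libraries. PRORS1 itself, listed as OVA6, had 1 read in Col-0 (LUC), while prors1 (LUC) had 16 and rls6 had 21. Small RNA reads at a gene do not measure its transcript, so these values do not check the genotype labels.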

How the data were processed

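Small RNA libraries of 17 to 30 nt were made per the labels' protocols from 30 µg of total RNA with a NEBNext small RNA kit. Trimmomatic, FastQC, Bowtie2 and featureCounts with the TAIR10 build are named in the submitters' processing notes, but not their settings or how strands and reads with several matches were counted. The deposited signal values are, per the file headers and the values, each gene's read count over a size factor of 0.950 to 1.24. Every value was a whole multiple of its column's smallest value within 1e-06, so 100% of values gave whole reads. In rls6 replicate 3 the step is close to 1. The mitochondrial share of reads was 0.451% ± 0.0296 (SD, n = 3) for Col-0 (LUC), 0.404% ± 0.0136 for prors1 (LUC) and 0.389% ± 0.0215 for rls6.

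The main test was limma 3.58.1 (R 4.3.3) fitted to log2(normalized reads + 1) with a trend of variance on mean, with all 9 libraries and genotype as the only term. It covered the 4766 genes that reached 10 normalized reads in 3 or more libraries, with Benjamini-Hochberg adjustment over all of them and a threshold of 0.05. The pseudocount makes the fold changes of genes with few reads too small. As alternatives, edgeR 4.0.16 and DESeq2 1.42.0 were run on the recovered reads of all libraries, and at the same filter edgeR called 364 genes higher and 313 lower in prors1 (LUC) against Col-0 (LUC). Pseudocount, filter, trend, scaling, replicate block and left-out libraries were varied too. The fitting was tested on simulated data for prors1 (LUC) against Col-0 (LUC), with a spread set beforehand that can differ from that of the libraries. At an adjusted p of 0.05 (limma), 32% of 2-fold rises and 38% of 2-fold falls were recovered. Of 4-fold rises and falls, 98% and 92% were recovered. A member without a call can therefore still differ, and these shares set no upper limit on its fold change. Without a call, ATMG00130 had a ratio of means of 2.09 in prors1 (LUC) over Col-0 (LUC). ATMG00140, also without a call, had 0.482 in rls6 over Col-0 (LUC). Neither gene reached the read minimum of the filter in any library of the genotype with its lower mean. Between replicates the chi-square over its degrees of freedom was 1.49 to 7.13, more than sampling alone gives.

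The authors' deposited log2 fold changes with log2 standard errors, p-values, Wald score and p-values after adjustment name no groups in their header. They followed prors1 (LUC) over Col-0 (LUC), with r 0.994 across 4766 genes, which are not independent, and served only for the sentences that name that table. The members and gene lists were chosen with earlier results of these data known. The members given in full are ATMG00030, those past the threshold in any comparison and the 10 with the highest mean. Nuclear and mitochondrial sequences of TAIR10.1 were compared by shared windows of 21 bases on either strand.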

Additional observations from a re-analysis of the deposited data

How the results depend on the processing

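In prors1 (LUC) against Col-0 (LUC), 5 members were higher and 1 lower. DESeq2 gave 2 higher, scaling by library total 2, upper-quartile factors 13 and a fit of only the 2 genotypes 3. The lower count was 0 without a trend and 0 with upper-quartile factors. Leaving out 1 library gave 2 to 6 higher and 0 to 1 lower, with 2 higher without Col-0 (LUC) replicate 1 or 3 or prors1 (LUC) replicate 1. In rls6 against Col-0 (LUC), upper-quartile factors gave 2 higher, the replicate block 1 higher, no trend 1 lower and library total 1 lower, and leaving out 1 library 0 to 2 higher and 0 to 1 lower. In rls6 against prors1 (LUC), 1 was higher with no filter and 1 with the block, and 2 were lower with no filter, 3 without a trend, 1 with DESeq2, 3 with upper-quartile factors and 10 with the block, against 6. Leaving out 1 library gave 0 to 1 higher and 3 to 8 lower. The cause was not tested.

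The replicate block gave 6 higher and 1 lower in prors1 (LUC) against Col-0 (LUC). Over all tested genes it gave 452 higher and 373 lower, against 369 and 316 in the main test. Correlations of the deviations from the genotype mean were computed between libraries of different genotypes. The correlations were -0.0182 to 0.153 for libraries of the same number and -0.1235 to 0.0323 for those of different numbers. The main test took no pairing by number, and whether libraries of the same number share a source was not tested.

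Log2 ratios of sums moved with scaling. For prors1 (LUC) against Col-0 (LUC) they were 0.17 with upper-quartile factors and -0.16 with library total over all members, 0.63 and 0.30 without ATMG00030, and 0.76 and 0.43 below the filter. For rls6 against Col-0 (LUC) they were 0.20 and -0.21 over all members, 0.31 and -0.11 without ATMG00030, and 0.55 below the filter with upper-quartile factors. For rls6 against prors1 (LUC) the ratio without ATMG00030 was -0.33 with upper-quartile factors. These factors rest on an upper quartile of only 2 or 3 reads. They moved the median of all genes to 0.20 in prors1 (LUC) and 0.25 in rls6, and library total moved it to -0.12 and -0.15, while the median of the members minus that of all genes stayed at 0.40 in prors1 (LUC) and -0.01 in rls6. Leaving out 1 library gave -0.09 to 0.04, -0.10 to -0.06 and -0.12 to 0.00 over all members in the 3 comparisons, 0.43 to 0.48, 0.01 to 0.06 and -0.44 to -0.40 without ATMG00030, and 0.53 to 0.64, 0.22 to 0.34 and -0.37 to -0.23 below the filter.

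Members that were not called changed sign in rls6 against Col-0 (LUC) with upper-quartile factors, to 0.13 for ATMG00030, 0.19 for ATMG00040, 0.26 for ATMG00660, 0.22 for ATMG00670, 0.16 for ATMG00680, 0.22 for ATMG00730 and 0.11 for ATMG00750. With library total, ATMG01090 went to -0.016 and ATMG01100 to -0.10 there, and ATMG00690 to -0.021 and ATMG00750 to -0.047 in prors1 (LUC) against Col-0 (LUC). Leaving out 1 library gave -0.011 to 0.39 for ATMG00140 and -0.080 to 0.17 for ATMG00750 in prors1 (LUC), and in rls6 -0.22 to 0.0683 for ATMG00660, -0.20 to 0.052 for ATMG00670, -0.023 to 0.32 for ATMG01090, -0.21 to 0.15 for ATMG01100 and -0.039 to 0.41 for ATMG01310.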
